A study of Mus musculus with 12 samples.

Results

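Cholesterol synthesis, uptake and trafficking in the liver were followed through 29 genes, a fixed list taken by symbol from the 23420 gene symbols of the deposited count tables. The list holds 18 enzymes of synthesis (7 of the mevalonate steps and 11 of the sterol steps), 4 genes that control the transcription factor SREBP2, and 7 genes that move, esterify or release cholesterol or govern its uptake. All 29 were present, Msmo1 under its older symbol Sc4mol. The genes were not chosen by their values in these livers, although they were chosen with earlier results of these data known.

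The livers came from 12 mice on a C57BL/6 background, taken at ZT10 (zeitgeber time in hours, lights on at the start) at about 20 weeks of age on normal chow. There were 3 wild type females (WTF 1089, 1090 and 1091), 3 Siah2 KO females (KOF 1070, 1104 and 1105), 3 wild type males (WTM 1055, 1086 and 1087) and 3 Siah2 KO males (KOM 1075, 1076 and 1081). Siah2, which encodes a ubiquitin ligase, was deleted in the whole animal, and the wild type and Siah2 KO mice were kept as related homozygous lines, so genotype and line cannot be told apart. The study asked at this time point whether loss of SIAH2 changed liver mRNA levels, within each sex and with the sexes combined. Every library was from one liver by the study's methods, although the labels speak of pooled RNA, and the mRNA was counted with QuantSeq, which reads one tag near the 3′ end of a transcript.

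In the liver, cholesterol is built from acetyl-CoA through mevalonate and squalene, and it is also taken up from lipoproteins and freed in lysosomes. When sterols are low in the endoplasmic reticulum, SCAP carries SREBP2 to the Golgi, where it is cut and released to raise transcription of the enzymes of the pathway. When sterols are high, INSIG proteins hold the SCAP and SREBP2 complex back, so mRNAs of the pathway tend to rise and fall as a block.

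Gene counts summed to between 1293688 and 4056144 per mouse, and the 29 genes together took between 0.363% and 0.840% of them. Levels are CPM, counts per 1000000 counted reads, after TMM scaling over the 12 libraries, with no division by length because a transcript gives one tag. The ribosomal RNA gene Rn45s took between 5.68% and 17.9% of the reads. WTF 1091 stood apart, with the lowest level of its group for 46.3% of genes, so results that rest on it are given with and without it. Siah2 itself lay between 9.42 and 17.4 CPM in the 6 Siah2 KO libraries and between 11.5 and 27.1 CPM in the 6 wild type libraries. Which part of the gene was deleted is not known from the labels or methods, and these tags therefore do not check the genotype labels. Xist ranged from 66.2 to 113 CPM over the 6 females, and no male exceeded 0.868 CPM. Hepatocyte markers summed to between 25031 and 39292 CPM with none of the 7 at 0, as the labelled tissue would have, against 198 to 344 CPM for endothelial, 143 to 378 CPM for stellate, 109 to 980 CPM for Kupffer and immune, 9.87 to 56.3 CPM for cholangiocyte, 47.8 to 127 CPM for fat, 10.8 to 57.4 CPM for acinar and 8.47 to 154 CPM for red cell markers. Of the markers found, 2 of 5 for fat, 2 of 5 for acinar cells and 4 of 6 for red cells were at 0 in all libraries. In bulk liver, fewer cells of a type and less RNA per cell cannot be told apart.

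The 29 genes differed widely in level. Hmgcs1, which encodes the synthase that makes HMG-CoA, lay between 386 and 2576 CPM over the 12 mice. Ebp, the sterol isomerase, lay between 890.4 and 2415 CPM, Insig2, a retention protein, between 403 and 1189 CPM, and Cyp51, the lanosterol demethylase, between 282 and 1163 CPM. Lower in counts were Lss, the lanosterol synthase, at 2.60 to 13.9 CPM, Srebf2, which encodes SREBP2, at 2.21 to 26.4 CPM, Soat1 at 0.765 to 10.5 CPM, Soat2 at 4.21 to 15.9 CPM, and Mylip at 1.59 to 24.1 CPM. Soat1 and Soat2 encode the sterol acyltransferases that make cholesteryl esters, Soat2 being the one of hepatocytes, and Mylip encodes a ubiquitin ligase that removes lipoprotein receptors. Idi1, the isomerase that makes dimethylallyl diphosphate, had 0 to 5 reads per library and was at 0 in KOF 1070, KOF 1105 and KOM 1076, where a count of 0 allows up to 0.813, 1.80 and 1.25 CPM. It was too low to test in any comparison, and Soat1 was too low to test within males, so 28 genes were tested in females and 27 in males. The reads carry no molecular identifiers, so such limits cover counting error only.

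**Figure D1:**
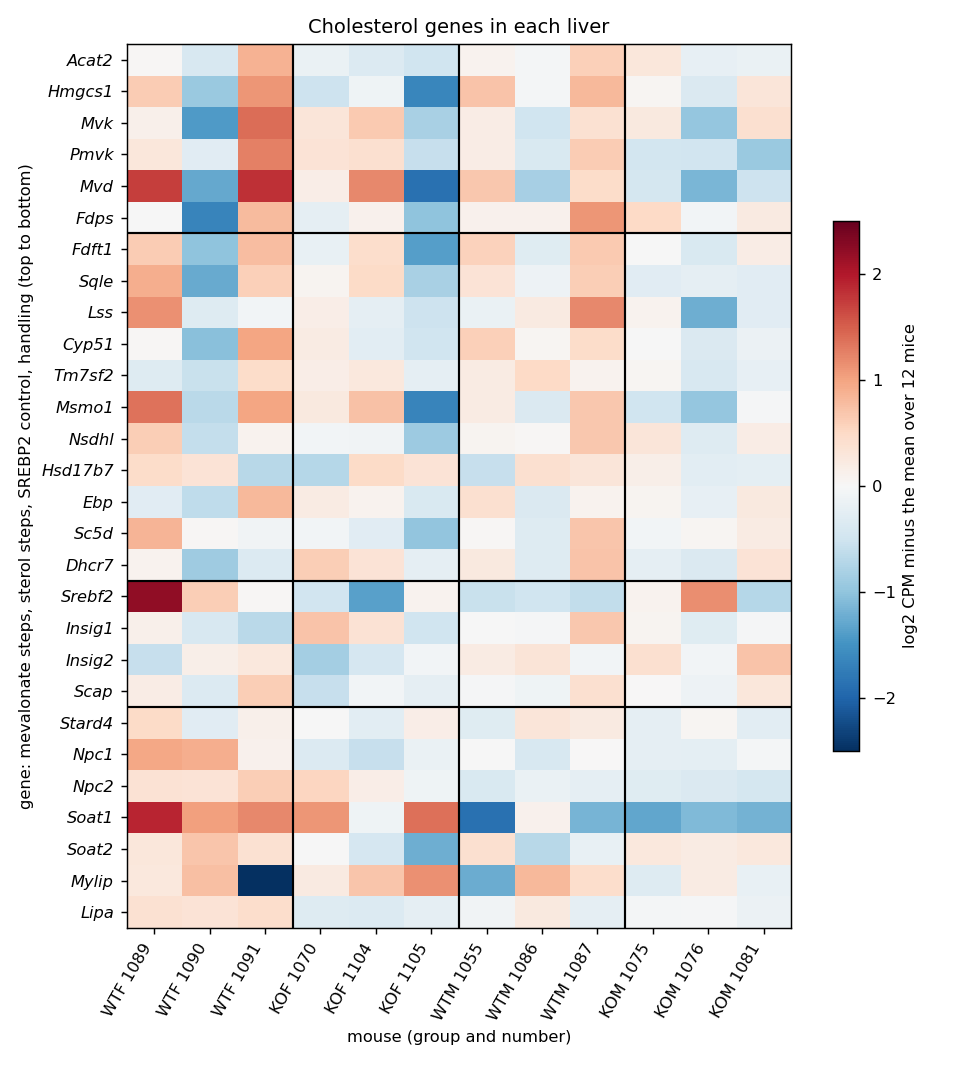
Level of each tested gene in each mouse, as log2 CPM minus the gene's mean over 12 mice (colour scale in log2 units, rows ordered by role, columns by group). The enzymes of synthesis, in the 2 upper blocks, are low together in WTF 1090, KOF 1105, WTM 1086 and KOM 1076, where 15, 16, 13 and 14 of the 17 enzymes had the lowest level of the group.

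The enzymes of synthesis moved from mouse to mouse as a block within each group. Of the 17 enzymes with usable counts, 15 had their lowest level of the wild type females in WTF 1090, 16 their lowest of the Siah2 KO females in KOF 1105, 13 their lowest of the wild type males in WTM 1086 and 14 their lowest of the Siah2 KO males in KOM 1076. The same 4 mice were lowest for 26.9%, 37.9%, 33.6% and 37.5% of all genes tested. The 11 genes of SREBP2 control and handling shared this pattern less. The same 4 mice were lowest for 5, 3, 4 and 5 of them. No mouse was lowest for more than 5, a count that KOF 1104 reached too.

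The sum of the 17 enzymes was 5295, 2569 and 7750 CPM in WTF 1089, 1090 and 1091. In KOF 1070, 1104 and 1105 it was 4152, 4274 and 2445 CPM. In WTM 1055, 1086 and 1087 it was 5833, 3790 and 6080 CPM, and in KOM 1075, 1076 and 1081 it was 4327, 3471 and 4730 CPM. The sum rests mostly on Hmgcs1, Ebp and Cyp51, the enzymes with the highest levels. By it, in both sexes the mouse with the least enzyme mRNA was a Siah2 KO mouse and the mouse with the most was wild type. Yet the groups of either sex overlapped, and the lowest females came close, at 2445 CPM in KOF 1105 and 2569 CPM in WTF 1090. The spread was widest in wild type females, where the highest level of an enzyme was a median 2.94 times the lowest, against 1.76 times for all genes. The same ratio was 1.97 in Siah2 KO females (all genes 1.46), 1.93 in wild type males (1.52) and 1.47 in Siah2 KO males (1.44).

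Mvd, the decarboxylase that ends the mevalonate steps, had levels of 50.5, 6.30 and 54.5 CPM in WTF 1089, 1090 and 1091. It had 17.05, 35.0 and 4.21 CPM in KOF 1070, 1104 and 1105, which rests on 7 reads in KOF 1105. In males it had 24.5, 8.55 and 21.0 CPM in the wild type and 11.3, 6.94 and 10.6 CPM in the Siah2 KO, in the order of the mice given above, an order kept from here on. Its highest level was 8.64 times its lowest within wild type females and 8.30 times within Siah2 KO females. Rn45s took the largest share of the reads of its group in KOF 1105 (14.9%), WTM 1086 (12.7%) and KOM 1076 (17.9%) but not in WTF 1090 (8.16%, against 11.7% in WTF 1089), and its part in the low enzyme levels was not tested.

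Sequences upstream of the genes were read for features that the list did not use. RefSeq promoters on GRCm38.p6 were matched for 23 of the 29 genes and read over the 250 bases before the start of the gene. The letters CCAAT, on either strand, stood in 21 of the 23, all but Acat2 and Scap, against 40.6% of 7408 tested genes and 37.5% of 27025 genes with a promoter. It stood in 14 of 15 enzymes and in 7 of 8 control and handling genes, so it did not mark out the enzymes. CCAAT is the letters that the factor NF-Y binds, a known partner of SREBP2 on its targets. The sterol element of the form TCACNCCAC, on either strand, stood only in Hmgcs1, against 1.36% of tested genes, and the E-box CACGTG, which clock proteins can bind, stood in 5 of the 23 (Hsd17b7, Sc5d, Dhcr7, Insig1 and Scap), against 10.3%. No motif overlapped another in the 5 promoters printed here. They are 3 enzymes of the block with high counts, and Lipa and Soat1, on which the comparisons below turn. Capitals mark TCACNCCAC and CCAAT matches, with CCAAT on the opposite strand reading as its reverse complement.
Hmgcs1 (chr13:119690101-119690350, plus strand): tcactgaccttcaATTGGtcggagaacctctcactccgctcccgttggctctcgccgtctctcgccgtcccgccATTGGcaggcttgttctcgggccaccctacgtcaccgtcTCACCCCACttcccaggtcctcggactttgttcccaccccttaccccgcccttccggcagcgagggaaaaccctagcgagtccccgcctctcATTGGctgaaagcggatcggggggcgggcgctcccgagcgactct
Cyp51 (chr5:4104698-4104947, minus strand): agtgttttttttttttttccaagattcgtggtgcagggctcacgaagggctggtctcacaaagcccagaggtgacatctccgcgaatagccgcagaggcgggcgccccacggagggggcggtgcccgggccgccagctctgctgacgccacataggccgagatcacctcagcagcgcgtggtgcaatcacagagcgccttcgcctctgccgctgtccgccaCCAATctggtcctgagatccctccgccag
Msmo1 (chr8:64733579-64733828, minus strand): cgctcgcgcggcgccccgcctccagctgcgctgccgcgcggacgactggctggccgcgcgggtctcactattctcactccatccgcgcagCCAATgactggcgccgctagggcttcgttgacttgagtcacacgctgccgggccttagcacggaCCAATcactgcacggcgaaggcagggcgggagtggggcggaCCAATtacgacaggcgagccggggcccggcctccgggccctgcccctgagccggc
Lipa (chr19:34527475-34527724, minus strand): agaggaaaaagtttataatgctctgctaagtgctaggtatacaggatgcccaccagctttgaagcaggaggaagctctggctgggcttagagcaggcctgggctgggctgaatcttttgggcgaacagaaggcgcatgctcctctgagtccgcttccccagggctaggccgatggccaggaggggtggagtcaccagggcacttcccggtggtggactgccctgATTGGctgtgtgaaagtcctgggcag
Soat1 (chr1:156474329-156474578, minus strand): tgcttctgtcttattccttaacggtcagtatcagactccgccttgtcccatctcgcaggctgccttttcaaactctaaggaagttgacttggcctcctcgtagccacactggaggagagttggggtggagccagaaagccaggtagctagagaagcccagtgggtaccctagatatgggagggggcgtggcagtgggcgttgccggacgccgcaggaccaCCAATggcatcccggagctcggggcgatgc
In Hmgcs1 the sterol element lay 137 bases before the start, between CCAAT matches that lay 237, 176 and 45 bases before it. Msmo1 held 3 matches of CCAAT, 160, 96 and 55 bases before the start, while Cyp51, Lipa and Soat1 held 1 each, 29, 26 and 30 bases before it. A match is a description of the letters and no measure of binding.

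In females without SIAH2 most of the 28 genes had a lower mean level, but no single gene passed the test. None of the 28 was called (edgeR quasi-likelihood test, Benjamini-Hochberg adjustment, 0.05), nor was any of 9465 genes (0%). The log2 fold change, Siah2 KO relative to wild type, was below 0 for 24 of the 28, against 52.7% of all genes, with a median of -0.43 against -0.03. Of the 17 enzymes, 15 were below 0, with a median of -0.40. Without adjustment, 5 genes had a p under 0.05, all lower, where 8.31% of all genes were lower by that measure. Those 5 were Npc1, Lipa, Srebf2, Soat2 and Sc5d, and 3 of them (Npc1, Lipa and Soat2) had levels that did not overlap between the groups, where 11.9% of all genes were lower without overlap.

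Markers of other cell types lay on both sides of 0 in the same comparison, more often below it, and none passed the test. Of 12 Kupffer cell and immune markers tested, 8 were below 0, against 52.7% of all genes, with a median log2 fold change of -0.33. Those 8 included Vsig4 at -1.02 (SE 0.36, adjusted p = 0.212) and Csf1r at -0.73 (SE 0.28, adjusted p = 0.245). The other 4 were above 0, among them Marco at 1.38 (SE 0.71, adjusted p = 0.389) and Lyz2 at 0.70 (SE 0.37, adjusted p = 0.402). Of 8 endothelial markers 6 were below 0 with a median of -0.37, and of 6 stellate markers 4 were, with a median of -0.36. Of 6 hepatocyte markers 3 were below 0, with a median of 0.13. Vsig4 and C1qa were called lower without WTF 1091, as Npc1 and Lipa were, in the fit that called more genes in all than with any other mouse left out. The part of other cell types in the female differences was not tested.

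Npc1, the protein that lets cholesterol out of lysosomes, had levels of 74.0, 71.1 and 40.8 CPM in the wild type and 30.0, 25.4 and 33.7 CPM in females without SIAH2. The means were 62.0 ± 18.4 and 29.7 ± 4.16 CPM (SD, n = 3 each), and every Siah2 KO female lay below every wild type female. The log2 fold change was -1.08 (SE 0.28, adjusted p = 0.126 by edgeR), and DESeq2 gave an adjusted p of 0.0405, its single call among the 28 (3.7% of 8185 genes). Without WTF 1091, the wild type female nearest to the Siah2 KO females, it was -1.30 with an adjusted p of 0.00458 by edgeR. More genes in all were called in that fit than with any other mouse left out (number at the end of the report). A gene named 3110002H16Rik overlaps Npc1 with 210 reads in all libraries, and reads of the overlap cannot be assigned without the strand setting of the counts, which the sources used here lack.

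Lipa, the acid lipase that frees cholesterol from its esters in lysosomes, had 135, 131 and 142 CPM in the wild type and 83.6, 82.5 and 89.1 CPM in the Siah2 KO females. It was the tightest of these differences, with means of 136 ± 5.50 and 85.1 ± 3.53 CPM. Its log2 fold change was -0.69 (SE 0.20, adjusted p = 0.156 by edgeR and 0.0930 by DESeq2). Leaving out each mouse in turn moved it only between -0.73 and -0.64. Without WTF 1091 the adjusted p was 0.0372 by edgeR, in the same fit that called the most genes in all. Lipa lies at chr19:34492316-34527474.

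Srebf2 had 26.4, 8.70 and 5.73 CPM in the wild type and 4.06, 2.21 and 6.02 CPM in the Siah2 KO females, so that the groups overlapped and WTF 1089 stood far above the other mice. The log2 fold change was -1.78 (SE 0.62, adjusted p = 0.203) with all mice and -0.88 without WTF 1089. Soat2 had 11.9, 15.9 and 12.7 CPM against 9.74, 7.36 and 4.21 CPM, without overlap, for a log2 fold change of -0.89 (SE 0.35, adjusted p = 0.263). Sc5d, the desaturase near the end of the sterol steps, had 561, 317 and 292 CPM against 297, 255 and 157 CPM, for a log2 fold change of -0.74 (SE 0.33, adjusted p = 0.315).

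The enzymes at the head of the pathway show how wide the female groups were. Hmgcs1 had 1848, 628 and 2576 CPM in the wild type and 840.2, 1104 and 386 CPM in the Siah2 KO females. The means were 1684 ± 985 and 777 ± 363 CPM, and WTF 1090 fell among the Siah2 KO females. Its log2 fold change was -1.13 (SE 0.51, adjusted p = 0.321). Acat2, the thiolase of the first step, had 86.6, 63.9 and 154 CPM against 75.2, 66.7 and 60.2 CPM. Acat2 has a close copy, Acat3, with 1848 reads of its own, and reads that match both cannot be assigned. Fdps, the farnesyl diphosphate synthase, had 162, 51.9 and 283 CPM against 139, 174 and 80.7 CPM. In both genes the groups overlapped, with log2 fold changes of -0.60 (SE 0.32) and -0.34 (SE 0.51).

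At the sterol steps, Fdft1, the squalene synthase, had 101, 32.1 and 110 CPM in the wild type and 56.8, 87.3 and 24.7 CPM in the Siah2 KO females. It overlaps Ctsb, which had 12862 reads, on the opposite strand, so its level is uncertain. Dhcr7, the reductase that yields cholesterol at the last step, had 30.7, 15.6 and 22.9 CPM against 44.1, 36.8 and 24.7 CPM. Dhcr7 was the enzyme with the highest log2 fold change in females, 0.61 (SE 0.32, adjusted p = 0.396), and Tm7sf2, a sterol reductase, was the other enzyme above 0, at 0.16 (SE 0.32). Insig1, a retention protein whose gene SREBP2 raises, had 96.7, 66.9 and 55.4 CPM against 146, 113 and 62.6 CPM, overlapping, with a log2 fold change of 0.54 (SE 0.33). Insig2 had 482, 800.0 and 863 CPM against 403, 544 and 686 CPM, at -0.41 (SE 0.30), and Scap had 167, 116 and 225 CPM against 98.8, 141 and 126 CPM, at -0.49 (SE 0.28).

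The shift in females depended on single mice, in size and, for some enzymes, in direction. Without WTF 1090, the wild type female with the least enzyme mRNA, the median of the 28 log2 fold changes was -0.74 and 24 were below 0. Without WTF 1091, the one with the most, it was -0.21. Then 19 of 28 were below 0, with 10 of 17 enzymes, against 50.5% of all genes. In that fit edgeR called Srebf2, Npc1 and Lipa lower. It also called more genes in all than with any other mouse left out (number at the end of the report). Calls in that fit were therefore not particular to this list. Over each mouse left out in turn, between 19 and 24 of the 28 genes and between 10 and 15 of the 17 enzymes were below 0. For 9 enzymes, among them Cyp51 (up to 0.26), Fdps (up to 0.31) and Mvk (up to 0.67), the sign turned with 1 mouse left out. In the fit of all 12 mice, Npc1 and Lipa were called, and more genes in all were called there than in the main fit.

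**Figure D2:**
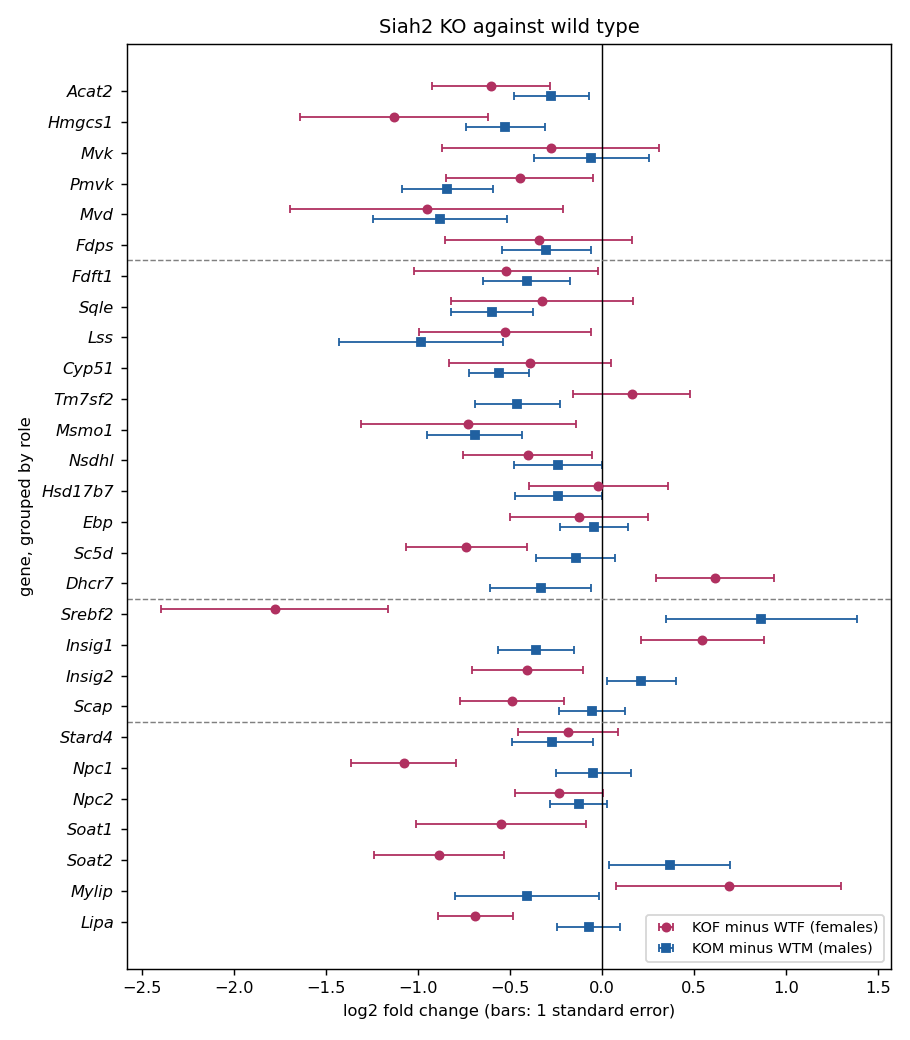
Log2 fold change of each gene in Siah2 KO against wild type mice (points, with bars of 1 standard error), in females (circles) and males (squares), ordered by role. All 17 enzymes of synthesis lie below 0 in males and 15 of 17 in females, while Npc1 and Lipa lie at -1.08 and -0.69 in females and at -0.05 and -0.07 in males.

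In males without SIAH2 the enzymes of synthesis lay lower on average, while the 6 handling genes tested had a median log2 fold change of -0.10, again with no gene past the test. None of the 27 genes tested was called, nor any of 8823 genes (0%). The log2 fold change was below 0 for 24 of the 27, against 51.9% of all genes, with a median of -0.28 against -0.01. All 17 enzymes were below 0, with a median of -0.41. Without adjustment, 7 genes had a p under 0.05, all of them enzymes and all lower, where 2.43% of all genes were lower by that measure. That count of 7 was 1 without WTM 1087, 3 without KOM 1076 and 1 in the fit of all 12 mice. The levels did not overlap for Cyp51, Pmvk, Sqle and Tm7sf2, all lower, where 4.42% of all genes were lower without overlap. Of 8 Kupffer cell and immune markers tested in males, 7 were below 0, with a median of -0.61 and none called. This rested largely on WTM 1086, where the listed markers summed to 700.2 CPM, against 169 and 109 CPM in WTM 1055 and 1087. In Siah2 KO males the sum was 128 to 284 CPM. With 1 mouse left out the sign turned for several of them, such as Cd5l (up to 0.64) and Lyz2 (up to 0.89), but not for C1qb. The part of these cells in the male differences was not tested.

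Cyp51 had 881, 608 and 803 CPM in wild type males and 578, 456 and 530 CPM in Siah2 KO males. The means were 764 ± 141 and 521 ± 61.3 CPM, and each Siah2 KO male lay below each wild type male. Its log2 fold change was -0.56 (SE 0.16, adjusted p = 0.9999). The female groups overlapped, with 599, 282 and 1163 CPM in the wild type and 671, 489 and 415 CPM in the Siah2 KO. Their log2 fold change was -0.39 (SE 0.44).

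Pmvk, the phosphomevalonate kinase, had 63.5, 42.7 and 86.3 CPM in wild type males and 40.7, 39.9 and 29.3 CPM in Siah2 KO males. The groups came close at 42.7 and 40.7 CPM without overlap, and the log2 fold change was -0.84 (SE 0.25, adjusted p = 0.9999). In females it had 67.5, 45.6 and 134 CPM against 70.6, 73.6 and 37.3 CPM, which overlapped widely. Sqle, the squalene epoxidase, had 40.5, 29.2 and 48.9 CPM in wild type males and 26.0, 27.3 and 26.1 CPM in Siah2 KO males. The Siah2 KO males were nearly level and all lower, with a log2 fold change of -0.60 (SE 0.22). In females Sqle had 59.6, 13.2 and 47.8 CPM against 33.3, 44.2 and 18.1 CPM, with overlap. Each adjusted p for the male enzymes was 0.9999 by edgeR.

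Msmo1, the sterol methyl oxidase, had 181, 123 and 252 CPM in wild type males and 111, 80.7 and 154 CPM in Siah2 KO males. In females it had 406, 99.3 and 312 CPM against 186, 260.3 and 50.0 CPM. Within both sexes the groups overlapped, with log2 fold changes of -0.69 (SE 0.26) in males and -0.73 (SE 0.58) in females. Hmgcs1 had 1956, 1154 and 2082 CPM in wild type males and 1233, 932 and 1466 CPM in Siah2 KO males, for a log2 fold change of -0.53 (SE 0.21). Lss had 5.35, 7.04 and 13.9 CPM against 6.41, 2.60 and 4.93 CPM, on few reads, at -0.98 (SE 0.45), and Mvd was at -0.88 (SE 0.36). In females Lss had 13.4, 4.80 and 5.73 CPM against 6.76, 5.16 and 4.21 CPM, at -0.53 (SE 0.47).

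Acat2 had 89.4, 81.4 and 128 CPM in wild type males and 103, 73.4 and 75.4 CPM in Siah2 KO males. Fdps had 176, 176 and 348 CPM against 229, 156 and 190.3 CPM, and Fdft1 had 95.6, 52.3 and 101 CPM against 64.5, 49.5 and 73.7 CPM. All 3 overlapped, with log2 fold changes of -0.28 (SE 0.20), -0.30 (SE 0.24) and -0.41 (SE 0.24). Sc5d had 317, 249 and 506 CPM against 297, 324 and 358 CPM, and Dhcr7 had 34.4, 23.1 and 47.7 CPM against 24.9, 22.6 and 36.7 CPM. Both overlapped, at -0.14 (SE 0.21) and -0.33 (SE 0.27). The enzymes not given by mouse were Mvk, the mevalonate kinase (11.4 to 80.6 CPM over the 12 mice), Tm7sf2 (15.6 to 32.7 CPM), Nsdhl (16.3 to 48.6 CPM), Hsd17b7 (34.1 to 77.7 CPM) and Ebp, and their male log2 fold changes lay between -0.46 for Tm7sf2 and -0.05 for Ebp.

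The control and handling genes of males lay close to 0 or on both sides of it. Srebf2 had 3.82, 4.02 and 3.71 CPM in wild type males and 6.03, 12.6 and 3.45 CPM in Siah2 KO males, overlapping, at 0.86 (SE 0.52), on 5 to 73 reads per library over all mice. Insig1 had 87.2, 86.5 and 141 CPM against 92.4, 71.2 and 86.5 CPM, at -0.36 (SE 0.21). Insig2 had 836, 905 and 689 CPM against 958, 691 and 1189 CPM, at 0.21 (SE 0.19). These groups overlapped too. Scap had 144, 137 and 195 CPM against 149, 135 and 179 CPM, at -0.06 (SE 0.18).

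Npc1 had 37.5, 28.7 and 38.1 CPM in wild type males and 32.4, 32.1 and 36.7 CPM in Siah2 KO males. Lipa had 97.1, 123 and 89.1 CPM against 101, 101 and 94.4 CPM. The male groups of both genes lay on top of each other, with log2 fold changes of -0.05 (SE 0.20) and -0.07 (SE 0.17). Soat2 had 13.0, 6.03 and 8.67 CPM against 11.7, 11.3 and 11.8 CPM, at 0.37 (SE 0.33). Stard4, a carrier of sterol between membranes, had 26.0, 39.7 and 37.4 CPM against 27.5, 33.4 and 26.9 CPM in males, and 45.1, 26.4 and 35.4 CPM against 31.9, 26.9 and 36.1 CPM in females. It overlapped in both sexes, at -0.27 (SE 0.22) and -0.19 (SE 0.27).

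The male shift also rested on single mice. Without WTM 1087, the wild type male with the most enzyme mRNA, the median of the 27 log2 fold changes was -0.11, with 17 of 27 genes and 12 of 17 enzymes below 0. Over each mouse left out in turn, between 17 and 24 genes were below 0, and DESeq2 also called none of the 27, with 6 genes called of all (0.037%).

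**Figure D3:**
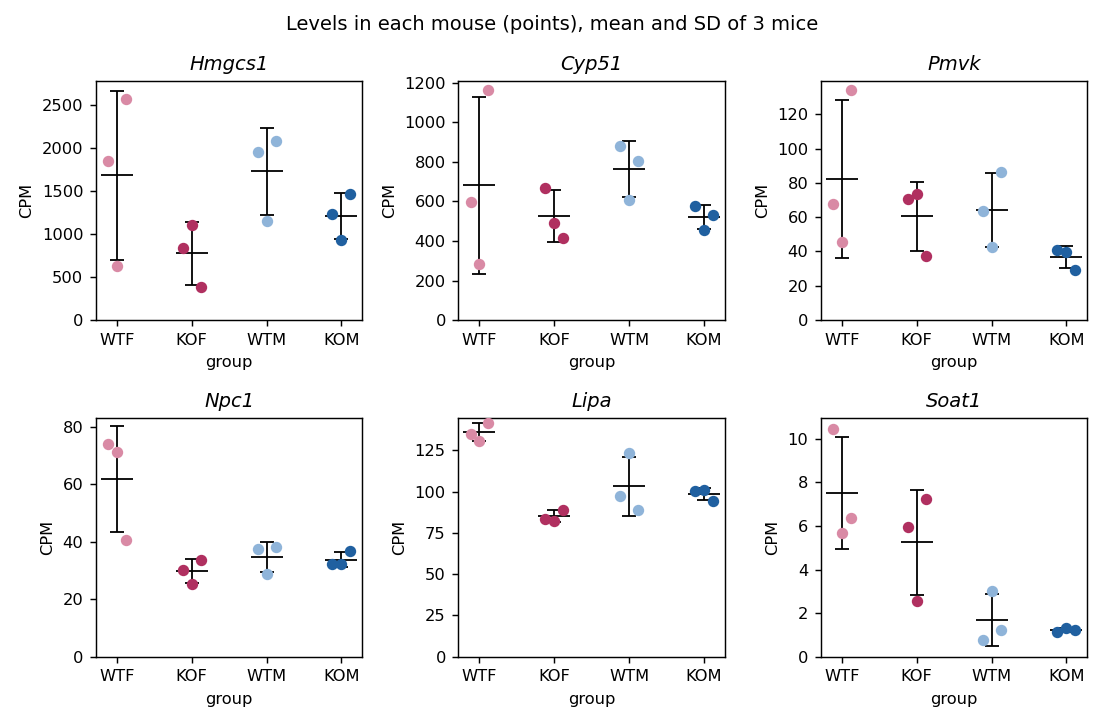
CPM of 6 genes in each mouse (points), with the mean (line) and SD (bars) of 3 mice per group, on linear axes from 0. Hmgcs1, Cyp51 and Pmvk are spread widely in wild type females and lower on average in both Siah2 KO groups, Npc1 and Lipa are higher in each wild type female than in any other mouse, and Soat1 is higher in both female groups than in all but the highest male.

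The sexes were then set against each other, since a low value in one sex and not in the other does not show that the sexes differ. Of the 27 genes tested in both sexes, 20 were below 0 in both (74.1%, against 24.7% of 8659 genes), and so were 15 of the 17 enzymes (88.2%). With the sexes combined and a term for sex, none of 28 genes was called, and 1 of 9806 genes was (0.0102%). DESeq2 called none of the 28 either (0.0112% of its genes). The median log2 fold change was -0.34, with 25 of 28 genes below 0, against 51.4% of all genes. Hmgcs1, at -0.82 (SE 0.31, adjusted p = 0.690), Pmvk, Lss, Npc1 and Lipa had an unadjusted p under 0.05, all lower, where 3.89% of all genes were lower by that measure.

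The female change less the male change was called for none of the 28 genes, where 25 of 9806 genes were called (0.255%), and DESeq2 called none of them either (3.32% of its genes). Without adjustment, 5 genes had a p under 0.05, where 14.1% of all genes had one. Srebf2 had a difference of -2.64 (SE 0.86, adjusted p = 0.173), Npc1 of -1.03 (SE 0.35, adjusted p = 0.187), Soat2 of -1.24 (SE 0.48, adjusted p = 0.242) and Lipa of -0.61 (SE 0.25, adjusted p = 0.270), each lower in females. Insig1 had a difference of 0.90 (SE 0.42, adjusted p = 0.347). No enzyme of synthesis was among the 5, and the 17 had a median difference of -0.04. Without WTF 1091 edgeR called Npc1 (adjusted p = 0.0176) and Srebf2 (adjusted p = 0.0357), and the median over the 28 genes turned from -0.07 to 0.11. That fit also called more genes in all than with any other mouse left out, and far more than the 25 of the main fit (number at the end of the report).

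Between wild type females and wild type males, 2 of the 28 genes were called and both were higher in females, where 2.27% of 9806 genes were called higher and 5.15% in either direction. They were Soat1 and Npc2, both handling genes, and no enzyme of synthesis had an unadjusted p under 0.05, which 20% of all genes had. DESeq2 called Npc1 as well (6.95% of all genes). Levels without overlap, all higher in females, were seen for 5 genes (Soat1, Npc2, Npc1, Srebf2 and Lipa), where 11.5% of all genes were higher without overlap.

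Soat1 had 10.5, 5.70 and 6.37 CPM in wild type females and 0.765, 3.02 and 1.24 CPM in wild type males. In Siah2 KO females it had 5.95, 2.58 and 7.22 CPM, and in Siah2 KO males 1.13, 1.302 and 1.23 CPM. The wild type groups did not overlap, nor did the Siah2 KO groups, but the highest male, WTM 1086, lay above the lowest female, KOF 1104. The log2 fold change, female relative to male, was 2.11 in wild type mice (SE 0.56, adjusted p = 0.0397) and was 2.04 in Siah2 KO mice (SE 0.57, adjusted p = 0.0632), on 1 to 29 reads per library. Soat1 lies at chr1:156428108-156474328.

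Npc2, the lysosomal carrier that hands cholesterol to NPC1, had 188, 183 and 222 CPM in wild type females and 111, 129.7 and 124 CPM in wild type males. Siah2 KO females had 211, 163 and 134 CPM and Siah2 KO males 118, 112 and 107 CPM. Every female lay above every male. Npc2 was higher by 0.70 on the log2 scale in wild type females than in wild type males (SE 0.20, adjusted p = 0.0494), and the value in Siah2 KO mice was 0.60 (SE 0.19, adjusted p = 0.109). Npc2 lies at chr12:84754559-84773112.

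Both calls were near the threshold. With 1 of the 12 mice left out in turn, Soat1 was called in 5 of 12 fits (adjusted p 0.0296 to 0.174) and Npc2 in 2 of 12 (adjusted p 0.0448 to 0.161), and leaving out WTF 1089, KOF 1070, WTM 1055, WTM 1087 or any Siah2 KO male ended both. The call of Npc2 held only without WTF 1091 or without KOF 1105.

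Kupffer cell and immune markers differed between the same groups. Of 12 such markers tested, 4 were called higher in wild type females than in wild type males (Clec4f, Vsig4, Csf1r and C1qb), where 223 of 9806 genes were. In Siah2 KO mice 5 were called higher in females than in males, where 172 of 9806 genes were. The sum of the 13 listed ran from 549 to 758 CPM over the wild type females, from 428 to 980.1 CPM over the Siah2 KO females, from 109 to 700.2 CPM over the wild type males and from 128 to 284 CPM over the Siah2 KO males, with none at 0 in all libraries. The wild type male with 700.2 CPM was WTM 1086, the male with the most Soat1, and the female with 428 CPM was KOF 1104, the female with the least. Other mice did not match in this way. KOF 1070, with the highest sum, had 5.95 CPM of Soat1, while KOF 1105, with a sum of 527 CPM, had 7.22 CPM. Marco alone made up 307 CPM of the sum in KOF 1070 and 243 CPM in WTM 1086. Of 8 red cell markers listed, 6 were found, and 4 of these (Hba-a1, Hba-a2, Hbb-b1 and Hbb-b2) were at 0 in all libraries. The sum, which rests on the few that remain, was 8.47 to 25.5 CPM in females and 84.4 to 154 CPM in males. The part of Kupffer or red cells in the differences of Soat1 and Npc2 was not tested. Without WTM 1086 the log2 fold change of Soat1 in wild type mice was 2.77 (adjusted p = 0.0385).

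The other genes whose wild type levels did not overlap between the sexes were not called by edgeR with all mice. Npc1 was at 0.83 (SE 0.24, adjusted p = 0.0592 by edgeR and 0.0354 by DESeq2), Srebf2 at 1.80 (SE 0.61, adjusted p = 0.101) and Lipa at 0.40 (SE 0.18, adjusted p = 0.219). Without WTF 1089, whose Srebf2 level of 26.4 CPM was the highest of all mice, Srebf2 was at 0.90 (adjusted p = 0.422). Without WTF 1091 edgeR called Npc1 (adjusted p = 0.00242) and Srebf2 (adjusted p = 0.0194) higher in wild type females. In Siah2 KO mice Npc1, Srebf2 and Lipa were at -0.19 (SE 0.25), -0.84 (SE 0.61) and -0.22 (SE 0.18). The wild type and Siah2 KO values share no mice with each other. Their difference is the difference between the sexes given above, which passed the test for none of them with all mice. Among Siah2 KO mice, 0 of 28 genes were called, where 352 of 9806 genes were (3.59%), and 3 had an unadjusted p under 0.05 (Soat1, Npc2 and Insig2), where 18.3% of all genes had one. DESeq2 also called 0 of the 28 (5.58% of all genes). Without WTF 1091, which is in neither of these groups but shares their fit, edgeR called Soat1, Npc2 and Insig2. Their adjusted p values were then 0.0380, 0.0300 and 0.0397. Ranges of the genes called in all with each mouse left out are at the end of the report. Insig2 was at -0.80 (SE 0.27, adjusted p = 0.118), with every Siah2 KO female below every Siah2 KO male. Levels without overlap were higher in Siah2 KO females for Npc2, Soat1 and Mylip, where 14.5% of all genes were, and 4 genes (Sc5d, Insig2, Soat2 and Lipa) were lower without overlap, where 15.3% of all genes were.

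**Figure D4:**
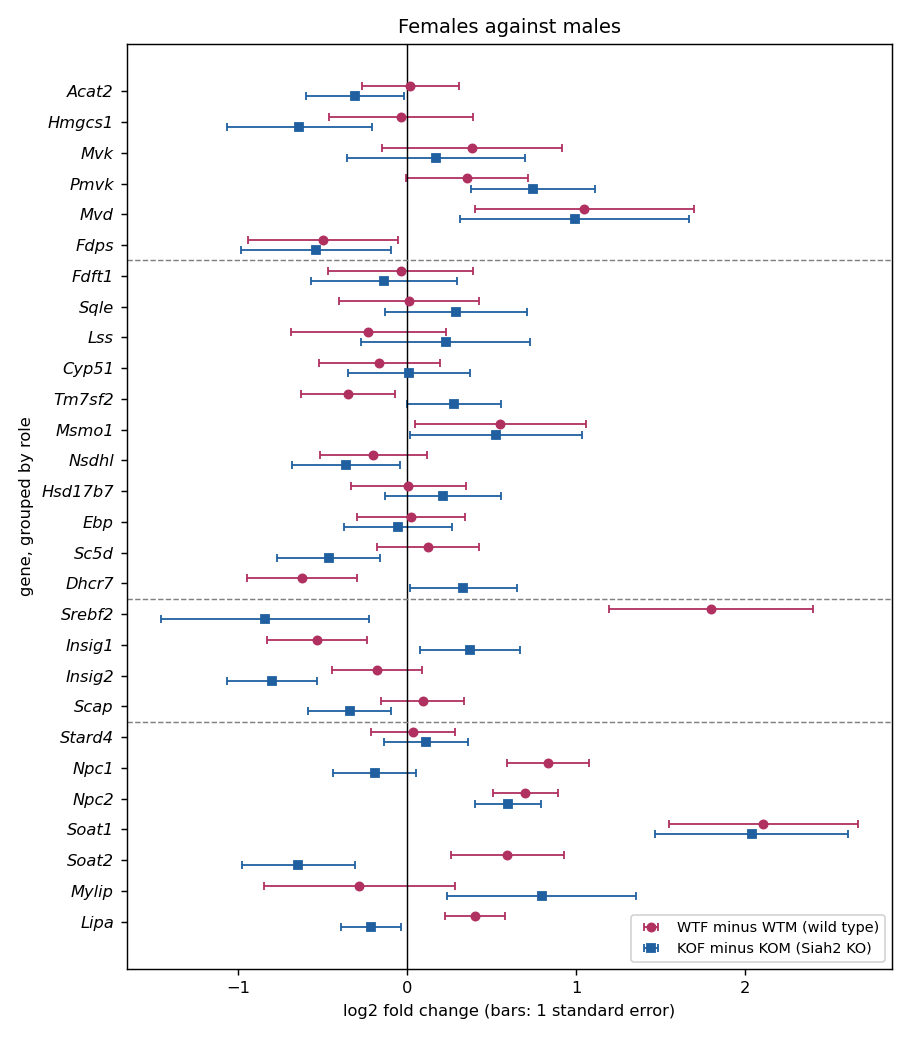
Log2 fold change of each gene in females against males (points, with bars of 1 standard error), in wild type mice (circles) and Siah2 KO mice (squares), ordered by role. Soat1 lies at 2.11 and 2.04 and Npc2 at 0.70 and 0.60, while the enzymes of synthesis lie on both sides of 0.

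The wider pathway was read through 38 other genes, of which 35 were tested. They covered the branch to isoprenoids, the proteins that cut or turn over SREBP and its partners, carriers of sterol, and genes of export and uptake. None was called for Siah2 KO against wild type in females, in males or with the sexes combined. In females their median log2 fold change was -0.01 with 18 of 35 below 0, and in males it was 0.00 with 17 of 35 below 0, on both sides of 0. In females Aacs, which activates acetoacetate, was at 0.83 (SE 0.31, adjusted p = 0.222) and Erlin1, a protein of the endoplasmic reticulum, at 0.71 (SE 0.28, adjusted p = 0.264). Neither passed the test.

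Between the sexes, edgeR called 2 of the 35 in wild type mice, Scp2 and Osbp, both lower in females, where 2.88% of all genes were called lower. DESeq2 called these and Erlin1, which was at -1.03 (SE 0.30, adjusted p = 0.0609 by edgeR and 0.0309 by DESeq2). Scp2, a carrier of sterol and fatty acyl chains that also acts in peroxisomes, had 699.5, 781 and 741 CPM in wild type females and 1277, 1423 and 1148 CPM in wild type males. In Siah2 KO mice it had 515, 626 and 594 CPM in females and 1609, 1555 and 1695 CPM in males. Every female lay below every male. The log2 fold change was -0.79 in wild type mice (SE 0.18, adjusted p = 0.0163) and -1.49 in Siah2 KO mice (SE 0.18, adjusted p = 0.000103), and the difference between the 2 values was -0.69 (SE 0.25, adjusted p = 0.209 by edgeR and 0.0280 by DESeq2). Leaving out 1 mouse at a time left Scp2 called in 12 of 12 fits for Siah2 KO mice and in 8 of 12 for wild type mice, where leaving out WTF 1089, WTF 1090, WTM 1086 or WTM 1087 ended the call.

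Osbp, a protein that exchanges cholesterol for a lipid of the Golgi, had 7.22, 6.60 and 2.55 CPM in wild type females and 16.1, 11.6 and 20.4 CPM in wild type males. These groups did not overlap, and the log2 fold change was -1.57 (SE 0.37, adjusted p = 0.0208). Without WTM 1087 the adjusted p was 0.129, and the other 11 fits kept the call. Siah2 KO mice had 8.93, 11.05 and 9.03 CPM in females and 15.8, 17.4 and 11.8 CPM in males.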

How the data were processed

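Liver RNA of 12 mice was profiled with the Lexogen QuantSeq 3′ kit. The authors ran trimming, mapping and counting on BaseSpace (RNAexpress), and the deposited tables, one per sex, hold raw read counts per gene symbol, with no normalization. The submitters' processing notes name STAR, DESeq and the build mm10, without roles. Annotation, strand setting and treatment of multi-mapped reads were not given in the sources used here. Columns were matched to mice by number. Symbols that spreadsheet software had turned into dates (27 rows, 0.228% to 0.272% of counts) stayed in the totals.

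Counts were tested with edgeR 4.0.16 in R 4.3.3 (filterByExpr by group, TMM, quasi-likelihood F test, two-sided) with Benjamini-Hochberg adjustment over all genes tested and a threshold of 0.05. Siah2 KO was compared with wild type within each sex and with a term for sex, and the sexes and the difference between them in 1 fit of the 4 groups. CPM carry no prior count, and SEs are those implied by the F statistic. Alternatives were DESeq2 1.42.0, limma-voom (limma 3.58.1), RLE scaling, no scaling beyond the total, a filter of 1 count in all, a filter of 10 counts in every library, a fit of all 12 mice, no sex term, and leaving out every mouse in turn. DESeq2 without WTF 1091 was added after seeing the data. The scripts were tested on simulated data. Python 3.11.15 with pandas 2.3.3, numpy 2.4.6 and matplotlib 3.10.9 made the tables and figures.

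The members and lists were chosen with earlier results of these data known. Values by mouse are given for genes with an unadjusted p under 0.05 in any of the 6 comparisons and for the first and last gene of each role, ranges for the others, and at most 3 other pathway genes per comparison are named. Some genes of the pathway are not reported here. Promoters and positions came from RefSeq on GRCm38.p6. Total counts were 1293688 to 4056144 per mouse, which leaves genes of a few reads, such as Idi1, Soat1 and Lss, imprecise.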

Additional observations from a re-analysis of the deposited data

How the results depend on the processing

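The 30 log2 fold changes of genes with an unadjusted p under 0.05 were computed again under the alternatives, which gave 492 values. Of these values 0 changed sign, 442 kept their side of the threshold, 29 passed it newly and 21 lost it. The 30 were chosen for a small p, which favours a stable sign. Over all members tested, 10 of 28 in females (9 enzymes) and 9 of 27 in males (6 enzymes) changed sign with 1 mouse left out. No paired analysis was possible because the groups share no mouse numbers. The counts of genes called moved as follows, as did the medians given in the report, and the cause was not tested.

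Siah2 KO against wild type females had 0 of the 28 genes called and 0 genes in all, against 1 and 303 with DESeq2, 3 and 484 with a filter of 1 count in all, and 2 and 427 in the fit of all 12 mice. Each mouse left out gave 0 to 3 and 0 to 936, the highest without WTF 1091, where DESeq2 gave 3 and 828. Males had 0 genes called in all against 6 with DESeq2, 29 with the filter of 1 count and 0 to 3 with each mouse left out. With the sexes combined, 1 gene in all was called, against 2 with DESeq2, 71 with the filter of 1 count (2 of the members), 3 with DESeq2 without WTF 1091, and 0 to 2 with each mouse left out. For the female change less the male change, the main count of 25 genes became 260 with DESeq2, 325 with the filter of 1 count (1 of the members) and 0 with no scaling beyond the total. Leaving out each mouse gave 0 to 522 genes and 0 to 2 members, the highest without WTF 1091, where DESeq2 gave 647 and 1.

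For wild type females against wild type males, 2 members were called, against 1 with limma-voom, with RLE scaling and with no scaling beyond the total, 4 with the filter of 1 count (802 genes in all, against 505) and 4 with DESeq2 without WTF 1091 (1076 genes). Each mouse left out gave 0 to 4 members and 201 to 1043 genes. For Siah2 KO females against Siah2 KO males, 0 members and 352 genes were called, against 3 and 664 with the filter of 1 count, and 0 to 3 and 150 to 972 with each mouse left out. Depth limits Soat1, Soat2, Lss, Srebf2, Mvd and Mylip, which had under 10 reads in at least 1 library, and Idi1, which could not be tested.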
